A study of Mus musculus with 6 samples.

Results

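The 43 genes described here encode enzymes of fatty acid beta-oxidation, the pyruvate dehydrogenase complex and the TCA cycle, with 4 of their regulators. They were chosen by gene symbol, and all 43 were found among the 36333 rows of the deposited count table and passed the filter on low counts. The study compared the pancreas of wild-type mice after cerulein with that of wild-type mice after saline, both given by intraperitoneal injection. Cerulein, a peptide related to cholecystokinin, overstimulates acinar cells. The mice received 10 injections of 200 µl each, at a dose of 200 µg/kg/h, and pancreatic RNA was taken when the injections were complete. There were 3 cerulein and 3 saline libraries. The labels give no age or sex, and nothing says whether the samples of a group are separate animals, so p-values measure the spread between these samples.

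In beta-oxidation, fatty acids enter mitochondria through the carnitine shuttle and are shortened by repeated rounds of dehydrogenation, hydration, a second dehydrogenation and thiolysis. Electrons from the first step reach the respiratory chain through the electron transfer flavoprotein, and the acetyl-CoA that is released enters the TCA cycle. Peroxisomes run a similar pathway for very long chain and branched substrates. Nuclear receptors of the PPAR and ERR families and their coactivators are known to control many of these genes. The acinar cell, which makes up most of the pancreas, depends on mitochondrial ATP for enzyme synthesis and secretion.

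Total counts per library were 6307887 to 7610775 in cerulein and 5335117 to 7194125 in saline, and values are given as CPM, counts scaled to a common library size after TMM correction. The first principal component separated the groups, and saline replicate 1 lay apart from the other saline libraries in its TMM factor, 1.03 against 0.72 and 0.731. After cerulein, 55.8% of the 12441 genes that passed the filter differed at an adjusted p under 0.05 (edgeR quasi-likelihood test), 28.7% being higher and 27.1% lower. These were 3574 and 3373 genes. The split was 2895 and 4190 with upper-quartile factors, 3010 and 3968 with library size without digestive enzyme genes, and 5188 and 1453 with library size alone. Under those scalings the middle gene of the whole table stood at a log2 change of -0.20, -0.15 and 0.56. Digestive enzyme genes took 33.2% ± 2.16 of counts in cerulein and 59.6% ± 8.07 in saline (SD, n = 3 each).

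The sequences that follow belong to genes whose values carry the results: a pair that shares 1 promoter region and fell together, a neighbouring pair that did not move alike, the steepest fall of the mitochondrial enzymes, and a TCA gene that rose. They are RefSeq sequences upstream of the annotated start (GRCm38.p6, the assembly behind mm10). Of the 43 members, 38 matched the promoter table, with 44 promoters in all. Hadha and Hadhb, the subunits of the mitochondrial trifunctional protein, are read in opposite directions from start sites with 272 bases between them on chromosome 5. Most of that stretch, chr5:30155003-30155252, is shown on the plus strand, ending at the base before the Hadhb start, and 58.8% of it is G or C.
Hadha and Hadhb shared region: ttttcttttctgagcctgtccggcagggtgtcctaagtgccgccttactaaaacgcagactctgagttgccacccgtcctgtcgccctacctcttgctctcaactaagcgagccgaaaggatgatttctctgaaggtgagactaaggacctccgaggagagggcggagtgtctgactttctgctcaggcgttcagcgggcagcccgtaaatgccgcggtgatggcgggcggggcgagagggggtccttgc
Acot1 and Acot2, neighbouring acyl-CoA thioesterase genes with start sites 21.6 kb apart on chromosome 12, are shown by the 100 bases before each start, chr12:84009402-84009501 and chr12:83987761-83987860, both on the plus strand.
Acot1 upstream: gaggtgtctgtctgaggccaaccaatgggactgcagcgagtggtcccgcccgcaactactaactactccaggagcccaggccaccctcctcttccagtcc
Acot2 upstream: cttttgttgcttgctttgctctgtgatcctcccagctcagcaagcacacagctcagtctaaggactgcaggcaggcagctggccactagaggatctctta

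The 300-base promoters were searched on both strands for the NRF1 element (the capitals in the Etfdh line), the cyclic AMP response element letters TGACGTCA, the nuclear receptor letters AAGGTCA, the longer ERR letters TCAAGGTCA, which contain them, and the PPAR direct repeat, 2 copies of AGGTCA with 1 base between them. The NRF1 element was in the Etfdh promoter alone among the members, at position -128 from the start, and in 0.971% of all 32851 promoters. The cyclic AMP letters were in promoters of 2 members, Mdh2 at position -127 and 3 start sites of Ogdh, and in 1.79% of all promoters. AAGGTCA was in promoters of 2 members, Acadm and Ogdh, and in 4.72% of all. The ERR letters were in 0 member promoters and 0.423% of all, and the direct repeat in 0 and 0.04%. The Etfdh stretch is chr3:79628861-79628920 on the minus strand and the Mdh2 stretch chr5:135778497-135778554 on the plus strand, with the matched letters in capitals.
Etfdh upstream: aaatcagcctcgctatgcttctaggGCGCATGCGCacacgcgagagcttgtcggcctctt
Mdh2 upstream: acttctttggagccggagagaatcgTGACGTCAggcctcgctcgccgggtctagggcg
Such a match describes letters only and shows neither binding nor a cause.

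After cerulein, 32 of the 43 genes fell, 3 rose and 8 did not pass the threshold, against 27.1% lower and 28.7% higher among all genes tested. Their median log2 fold change was -1.40, against -0.00089 for all genes. Falls of at least 2-fold were called for 26 members, against 17.7% of all genes, and 33 members had every cerulein library below every saline library, against 30.6% of all genes. Another 4 had every cerulein library above, and such separation in either direction was seen for 63% of all genes. Without saline replicate 1 the counts were 32 and 3. Scaled by library size alone, 22 of the 43 fell and 6 rose. Relative to the median of all genes the members' median was -1.37 even then. The fall was steepest in fatty acid oxidation, and the TCA cycle was mixed.

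**Figure D1:**
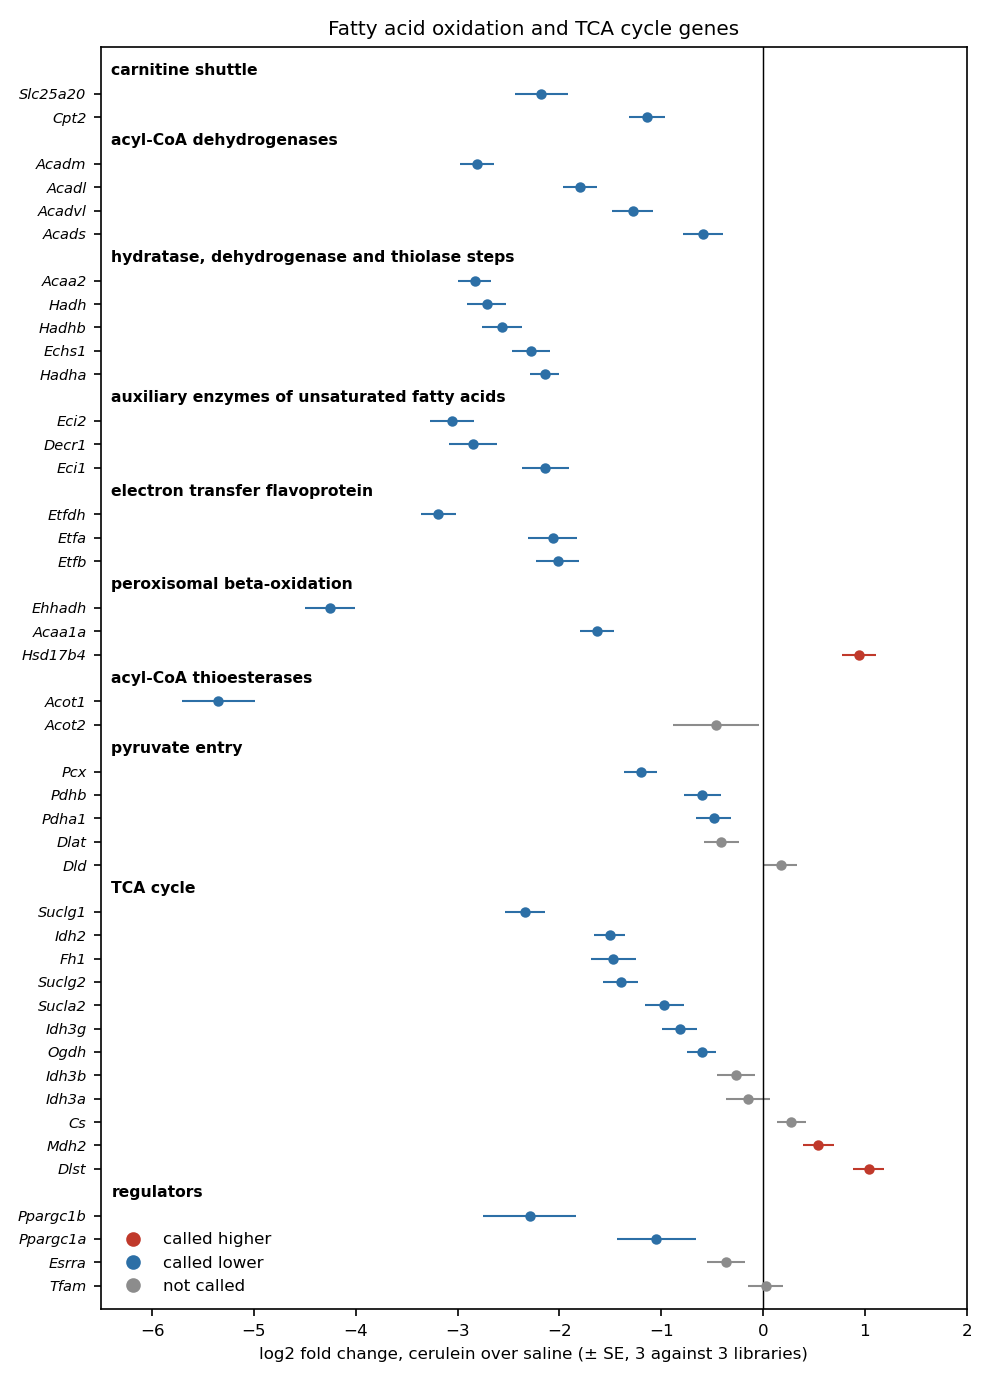
Log2 fold change of each of the 43 genes, cerulein over saline, with its standard error (edgeR, 3 against 3 libraries), grouped by role and coloured by call. All 17 mitochondrial beta-oxidation genes lie left of 0, from Acads at -0.59 to Etfdh at -3.19. Hsd17b4, Dlst and Mdh2, called higher, lie to the right, as do Cs, Dld and Tfam, which were not called.

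All 17 genes of mitochondrial beta-oxidation fell, 16 of them at least 2-fold. Among all genes tested, 27.1% were lower and 17.7% lower by at least 2-fold. The median log2 fold change of the 17 was -2.18. Their summed level was 176, 193 and 190 CPM in the cerulein libraries, against 831, 848 and 892 CPM in the saline libraries. Within each group these sums differed little, and the groups lay far apart. The count was 17 also without saline replicate 1, and 14 with library size alone, where Cpt2, Acadvl and Acads lost their calls. In bulk tissue, fewer cells of a type and less RNA per cell cannot be told apart. Markers of other tissues with a high capacity for fat oxidation were measured beside this result. The 8 white adipocyte markers summed to 112 to 173 CPM in cerulein and 135 to 298 CPM in saline, the highest being saline replicate 1, and of 6 tested Lep rose and Fabp4 fell. The 3 brown fat markers summed to 2.22 to 3.40 CPM in cerulein and 0 to 0.135 CPM in saline. Among them Ucp1, not tested, had 8, 6 and 9 counts in the cerulein libraries and 0 in each saline library. Cidea, the only brown fat marker tested, was called higher, from 14, 12 and 17 counts in cerulein against 1, 0 and 0 in saline. Its log2 change was 4.43 ± 0.84 (adjusted p = 6.08e-04, edgeR). The 6 skeletal muscle markers summed to 1.89 to 3.31 CPM in cerulein and 0.449 to 2.70 CPM in saline. Of these, Acta1 had 10, 12 and 7 counts in the cerulein libraries and 0 in each saline library, Myh4 was at 0 in all 6, and the other four were detected at low counts. The 10 acinar markers were detected in all libraries and 9 of them fell, and the 6 duct markers summed to 878 to 1110 CPM in cerulein and 136 to 170 CPM in saline. The part of cell composition in the fall was not tested.

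Of the carnitine shuttle, Slc25a20, the carnitine and acylcarnitine carrier of the inner membrane, had 4.25, 2.57 and 3.27 CPM in cerulein against 17.4, 13.2 and 14.9 CPM in saline. It fell 4.52-fold (log2 change -2.18 ± 0.26 SE, adjusted p = 1.26e-05, edgeR). Cpt2, which frees the acyl group from carnitine inside the mitochondrion, had 19.2, 15.3 and 15.2 CPM in cerulein against 33.9, 34.1 and 42.1 CPM in saline, a 2.2-fold fall. Neither gene overlapped between the groups.

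The acyl-CoA dehydrogenases carry out the first step of each round and differ in the chain length they prefer. Acadm, the medium-chain enzyme, fell most, with 8.03, 10.2 and 10.1 CPM in cerulein against 68.8, 65.1 and 63.9 CPM in saline (log2 change -2.81 ± 0.17, adjusted p = 3.57e-08, edgeR). Acadl, the long-chain enzyme, had 23.1, 30.0 and 24.7 CPM in cerulein against 89.2, 103 and 78.2 CPM in saline. Acadvl, the very long chain enzyme, had 13.2, 11.4 and 18.1 CPM in cerulein against 39.2, 28.8 and 35.6 CPM in saline. The short-chain gene Acads moved least, with 12.6, 15.5 and 11.6 CPM in cerulein against 18.5, 17.5 and 24.1 CPM in saline (log2 change -0.59 ± 0.20, adjusted p = 0.0222, edgeR). The call of Acads was lost when cerulein replicate 1, cerulein replicate 3 or saline replicate 3 was left out, at adjusted p of 0.0745, 0.101 and 0.101 (edgeR), and its fold change was -0.02 with library size alone. In each cerulein library Acadl had 2.45 to 2.95 times the counts of Acadm, against 1.22 to 1.59 times in the saline libraries. The difference of log2 ratios was 1.01 ± 0.14 SE (two-sided exact permutation test, p = 0.1 and 0.167 adjusted over 10 pairs). Exon bases shared with other genes, mainly Dvl2, make up 42.9% of Acadvl, so its level is less certain.

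The hydratase, dehydrogenase and thiolase steps complete the round, and all 5 genes fell 4.42-fold to 7.13-fold. Acaa2, the mitochondrial thiolase, had 7.32, 8.87 and 8.81 CPM in cerulein against 61.1, 59.1 and 58.2 CPM in saline (log2 change -2.83 ± 0.17, adjusted p = 3.23e-08, edgeR). Hadha, which carries the hydratase and dehydrogenase activities of the trifunctional protein, had 23.0, 23.6 and 24.8 CPM in cerulein against 111, 99.5 and 105 CPM in saline. Hadh, the short-chain hydroxyacyl-CoA dehydrogenase, also known for restraining insulin release in islets, had 11.7, 13.4 and 13.1 CPM in cerulein against 70.5, 73.9 and 107 CPM in saline. All 3 had narrow cerulein groups far below saline. Hadhb, the thiolase subunit partnered with Hadha across the shared region printed above, had 4.01, 5.83 and 5.42 CPM in cerulein against 28.5, 30.1 and 32.1 CPM in saline. The Hadha to Hadhb ratio of counts was 5.74, 4.04 and 4.58 in cerulein against 3.88, 3.31 and 3.29 in saline. The groups did not overlap, although 62.4% of the 50-base stretches of Hadhb also occur in annotated transcripts of other genes, so some of its reads may not have been assigned. Echs1, the short-chain enoyl-CoA hydratase, fell by 2.28 ± 0.19 on the log2 scale.

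Unsaturated fatty acids need auxiliary enzymes that move or reduce their double bonds, and all 3 genes fell. Eci2, an enoyl-CoA isomerase found in mitochondria and peroxisomes, had 7.67, 6.30 and 5.42 CPM in cerulein against 47.3, 67.8 and 46.9 CPM in saline, an 8.31-fold fall (adjusted p = 1.3e-07, edgeR). Decr1, the mitochondrial dienoyl-CoA reductase, had 2.60, 3.50 and 3.78 CPM in cerulein against 28.5, 22.2 and 20.0 CPM in saline. Eci1 had 4.37, 5.49 and 6.67 CPM in cerulein against 22.4, 20.0 and 30.8 CPM in saline. Every cerulein library was below every saline library for these genes.

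The electron transfer flavoprotein and its oxidoreductase pass electrons from the acyl-CoA dehydrogenases to ubiquinone. Etfdh, the oxidoreductase whose upstream stretch is shown above, had 10.0, 8.05 and 10.96 CPM in cerulein against 85.8, 92.8 and 86.4 CPM in saline, the largest fall among the mitochondrial genes at 9.12-fold (log2 change -3.19 ± 0.17, adjusted p = 1.5e-08, edgeR). The flavoprotein subunit Etfa had 3.78, 3.15 and 3.78 CPM in cerulein against 15.7, 12.4 and 16.9 CPM in saline. Its partner Etfb had 9.80, 16.7 and 10.7 CPM in cerulein against 45.8, 48.1 and 57.4 CPM in saline. Both subunits fell by close amounts, -2.07 ± 0.24 and -2.02 ± 0.21, and their ratio overlapped between the groups (difference of log2 ratios 0.01 ± 0.34 SE, exact permutation test, two-sided p = 1.0). Of the 50-base stretches of Etfb, 67.3% occur in transcripts of another annotated gene.

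**Figure D2:**
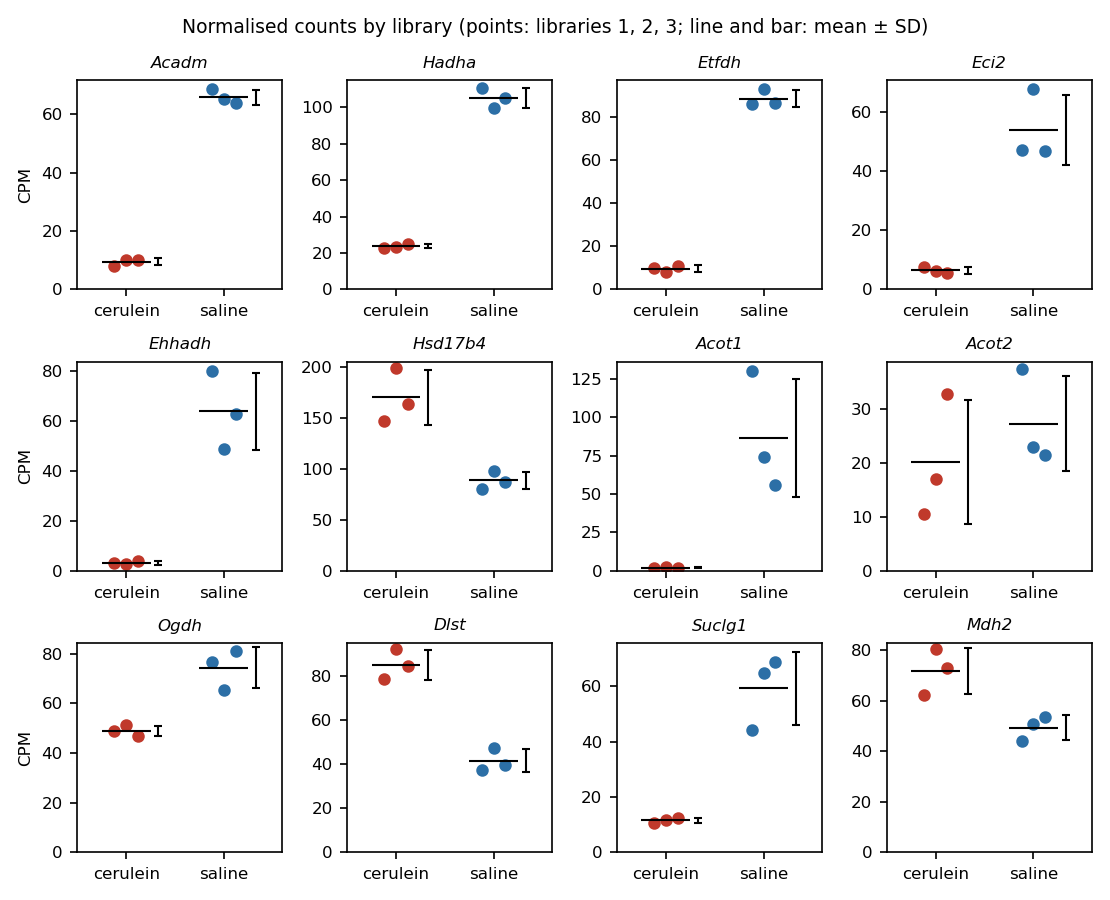
CPM in each library for 12 of the genes, cerulein left and saline right, with the group mean and SD, on linear axes that start at 0. Hsd17b4, Dlst and Mdh2 are higher in all 3 cerulein libraries, Acot2 overlaps, and the other 8 are lower in all 3.

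The peroxisomal genes moved in opposite directions. Ehhadh and Hsd17b4 encode parallel bifunctional enzymes, each with a hydratase and a dehydrogenase activity, of which the Hsd17b4 product also handles branched and bile acid precursors. Ehhadh (chromosome 16, 21761285 to 21787834) had 3.31, 2.57 and 4.16 CPM in cerulein against 79.8, 48.7 and 62.6 CPM in saline, a 19.1-fold fall (log2 change -4.26 ± 0.24, adjusted p = 2.98e-08, edgeR). Hsd17b4 (chromosome 18, 50128201 to 50196270) had 147, 200 and 164 CPM in cerulein against 80.8, 98.2 and 87.5 CPM in saline, a 1.92-fold rise (log2 change 0.94 ± 0.17, adjusted p = 3.89e-04, edgeR). Hence the counts of Ehhadh were 0.0224, 0.0129 and 0.0254 of those of Hsd17b4 in cerulein, against 0.988, 0.497 and 0.716 in saline. The difference of log2 ratios was -5.16 ± 0.41 SE (two-sided exact permutation test, p = 0.1 and 0.167 adjusted over 10 pairs). With 3 against 3 libraries no p below 0.1 is possible. Acaa1a, a peroxisomal thiolase, had 23.2, 32.8 and 27.4 CPM in cerulein against 79.8, 95.0 and 84.1 CPM in saline. Of its 50-base stretches, 35.1% occur in transcripts of other genes, mainly its copy Acaa1b. All 3 calls held under each alternative tried.

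Acyl-CoA thioesterases free fatty acids from coenzyme A, the Acot1 product in the cytosol and the Acot2 product in mitochondria. Acot1 (chromosome 12, 84009502 to 84017670) had the largest change of the 43 genes, with 2.12, 2.33 and 1.89 CPM in cerulein against 130, 73.9 and 55.9 CPM in saline (40.8-fold lower, log2 change -5.35 ± 0.36, adjusted p = 9.75e-07, edgeR). Saline replicate 1 was the highest saline library, and without it the log2 change was -4.96. Acot2 was not called, with 10.6, 17.0 and 32.9 CPM in cerulein against 37.4, 22.9 and 21.5 CPM in saline (log2 change -0.46 ± 0.42, adjusted p = 0.391, edgeR). Cerulein replicate 3 overlapped the saline range, and without it Acot2 was lower at -0.98 (adjusted p = 0.0187, edgeR). The genes share 27.7% of the 50-base stretches of Acot2 and 33.65% of those of Acot1 with other annotated genes, most of them of the same family, so some of their reads may not have been assigned.

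At the entry of pyruvate, the changes were small. The pyruvate dehydrogenase complex joins an E1 enzyme (Pdha1 and Pdhb), an E2 core (Dlat) and the E3 subunit Dld, which the oxoglutarate complex shares. Pdha1 had 28.9, 34.9 and 41.4 CPM in cerulein against 53.0, 51.0 and 43.1 CPM in saline. Pdhb had 15.8, 17.5 and 15.1 CPM in cerulein against 26.9, 19.8 and 26.4 CPM in saline. Both fell by less than 2-fold, -0.49 ± 0.17 and -0.60 ± 0.18 on the log2 scale (adjusted p = 0.0263 and 0.0127, edgeR). Transcripts of other annotated genes hold 16.9% of the 50-base stretches of Pdha1 and 30.3% of those of Pdhb, so some reads may not have been assigned. The call of Pdha1 was lost without cerulein replicate 1 or 2, at -0.35 and -0.47, and that of Pdhb without cerulein replicate 3, at -0.54. Dlat, at -0.41 ± 0.17, and Dld, at 0.17 ± 0.16, did not pass. Dlat was called lower without saline replicate 3, at -0.52, and with upper-quartile factors or library size without digestive enzyme genes. Pcx, the pyruvate carboxylase that refills the cycle with oxaloacetate, fell more clearly, with 28.0, 26.6 and 30.1 CPM in cerulein against 75.8, 57.1 and 61.5 CPM in saline (2.3-fold, adjusted p = 2.98e-05, edgeR). With library size alone 0 genes of this group were called lower and 1 higher.

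Of the 12 TCA cycle genes, 7 fell, 2 rose and 3 did not pass the threshold, against 27.1% lower and 28.7% higher among all genes tested. The median log2 fold change of the 12 was -0.71. With library size alone 4 were lower and 3 higher, and relative to the median of all genes the median was then still -0.71. The deepest fall was Suclg1, the alpha subunit common to both forms of succinyl-CoA ligase, with 10.7, 11.8 and 12.5 CPM in cerulein against 44.3, 64.9 and 69.0 CPM in saline (5.06-fold, adjusted p = 6.16e-07, edgeR). The beta subunit Suclg2, of the GTP-forming enzyme, had 15.8, 17.9 and 17.1 CPM in cerulein against 36.7, 47.2 and 50.8 CPM in saline. Of the 50-base stretches of Suclg2, 21.8% occur in transcripts of another annotated gene, so some of its reads may not have been assigned. Sucla2, the beta subunit of the ATP-forming enzyme, fell by 0.97 ± 0.19 on the log2 scale. The ratio of Suclg2 to Sucla2 was 1.22 ± 0.155 in cerulein and 1.64 ± 0.337 in saline (SD, n = 3 each) and overlapped between the groups (exact permutation test, two-sided p = 0.2).

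Isocitrate dehydrogenases use either NADP or NAD as cofactor. Idh2, the mitochondrial NADP enzyme, had 38.6, 41.7 and 34.6 CPM in cerulein against 102, 103 and 121 CPM in saline (2.84-fold lower, adjusted p = 2.91e-06, edgeR). Its cytosolic counterpart Idh1, which is not among the 43 genes, had 41.1, 52.4 and 94.2 CPM in cerulein against 39.4, 42.0 and 32.3 CPM in saline and was not called (log2 change 0.72 ± 0.28, adjusted p = 0.0558, edgeR). Idh1 was called higher in 4 of 15 alternatives, which were DESeq2, no count filter, library size alone and leaving out cerulein replicate 1, and its log2 change was 0.31 without cerulein replicate 3. Idh2 exceeded Idh1 by 2.46 to 3.75 times in the saline libraries and stood at 0.368 to 0.940 of it in the cerulein libraries. Of the NAD enzyme's subunits, Idh3g fell by 0.82 ± 0.17 on the log2 scale, while the catalytic subunit Idh3a and its partner Idh3b, at -0.15 ± 0.21 and -0.27 ± 0.19, did not pass. The Idh3a to Idh3g ratio was 0.890 ± 0.142 in cerulein and 0.554 ± 0.0999 in saline (SD, n = 3 each), and the groups did not overlap.

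Among the subunits of the oxoglutarate dehydrogenase complex, Ogdh fell, Dlst rose and the shared subunit Dld, given above, did not pass. Ogdh, the E1 enzyme, had 48.8, 51.1 and 47.0 CPM in cerulein against 76.7, 65.4 and 81.0 CPM in saline (log2 change -0.60 ± 0.14, adjusted p = 0.00307, edgeR). With library size alone Ogdh was at -0.04 and was not called. Dlst, the E2 core (chromosome 12, 85110822 to 85134091), had 78.8, 92.3 and 84.6 CPM in cerulein against 37.5, 47.6 and 39.8 CPM in saline (log2 change 1.04 ± 0.15, adjusted p = 7.65e-05, edgeR). Neither gene overlapped between the groups. At the end of the cycle, Fh1, fumarate hydratase, fell by 1.47 ± 0.22. Mdh2, the mitochondrial malate dehydrogenase, rose, with 62.2, 80.4 and 73.2 CPM in cerulein against 44.0, 50.8 and 53.6 CPM in saline (log2 change 0.54 ± 0.15, adjusted p = 0.00896, edgeR). With upper-quartile factors Mdh2 was at 0.34 and did not pass (adjusted p = 0.0576, edgeR). Citrate synthase, Cs, the entry step of the cycle, had 110, 116 and 107 CPM in cerulein against 95.5, 86.0 and 92.3 CPM in saline and did not pass (log2 change 0.28 ± 0.14, adjusted p = 0.115, edgeR), although the libraries did not overlap.

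**Figure D3:**
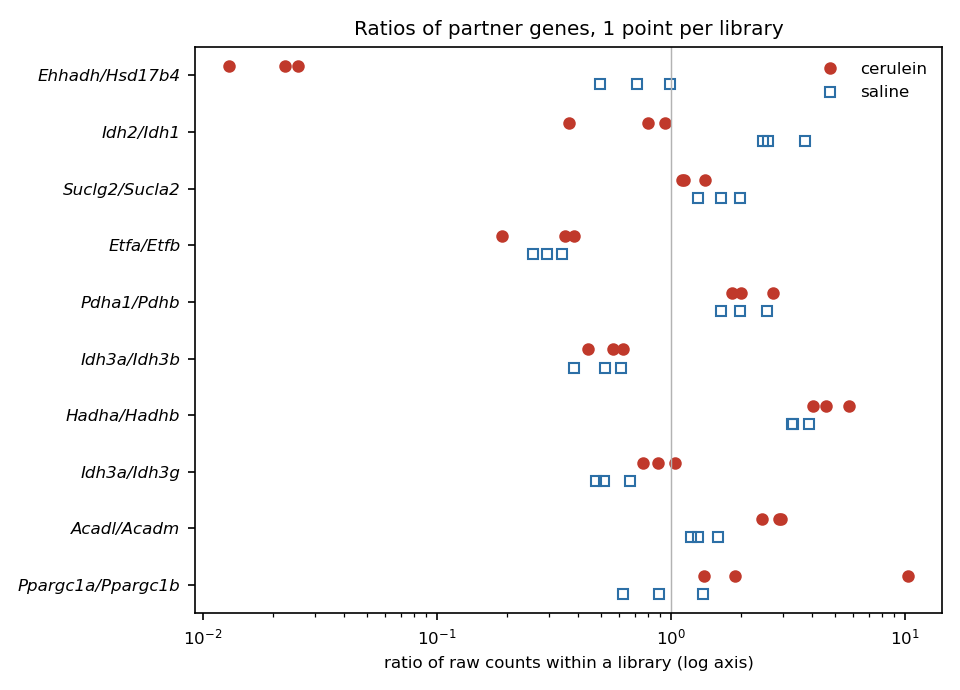
Ratio of raw counts of 2 partner genes within each library, on a log axis, with cerulein points above saline points, 3 libraries each. The Ehhadh/Hsd17b4, Idh2/Idh1, Idh3a/Idh3g, Acadl/Acadm and Hadha/Hadhb ratios do not overlap between the groups, and neither do those of Ppargc1a/Ppargc1b, where 1 cerulein library rests on 3 counts of Ppargc1b.

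A ratio within a library does not depend on how libraries are scaled. Among 10 pairs, 6 had ratios that did not overlap between the groups, each at p = 0.1 before and 0.167 after adjustment over the pairs (two-sided exact permutation tests). The other pairs were Etfa/Etfb, Pdha1/Pdhb, Idh3a/Idh3b and Suclg2/Sucla2. Among single genes, 63% of all those tested did not overlap between the groups. The share among gene pairs of the whole table was not computed, so the count of 6 is not read as particular to these pairs. For Pdha1/Pdhb the difference of log2 ratios was 0.09 ± 0.26 SE and for Idh3a/Idh3b 0.12 ± 0.24 SE, with 3 libraries in each group.

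Among the 4 regulators, the 2 coactivators of the PGC family were lower and the other two did not pass. Ppargc1b had 2.01, 0.35 and 1.64 CPM in cerulein against 7.29, 5.39 and 6.92 CPM in saline, from 3 to 17 counts per cerulein library (log2 change -2.29 ± 0.46, adjusted p = 8.99e-04, edgeR). Ppargc1a, known for inducing mitochondrial genes, had 3.78, 3.62 and 2.27 CPM in cerulein against 10.0, 3.37 and 6.16 CPM in saline (log2 change -1.05 ± 0.39, adjusted p = 0.0342, edgeR). Its groups overlapped, and its call was lost without each library other than saline replicate 2, with -0.57 without saline replicate 1. Esrra, the nuclear receptor ERR alpha, was at -0.37 ± 0.19, and at -0.51 and called lower without saline replicate 1. The product of Tfam packages mitochondrial DNA and acts in its transcription. Tfam had 17.0, 18.6 and 16.2 CPM in cerulein against 17.0, 16.2 and 17.7 CPM in saline, a log2 change of 0.03 ± 0.17 with overlapping groups.

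Levels were compared between genes per kilobase of exon (CPM per kb, group means). In cerulein Hsd17b4 ranked first at 50.03 CPM per kb, followed by Mdh2 at 20.2 and Cs at 19.2. In saline Acadl ranked first at 45.0 CPM per kb, followed by Etfb at 43.3, Idh2 at 42.1 and Acaa2 at 39.2. Acot1 ranked 41 of 43 in cerulein and 6 of 43 in saline, and Ehhadh 37 and 7. Exon length here joins all annotated isoforms, so levels of genes with long unused exons are understated.

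**Figure D4:**
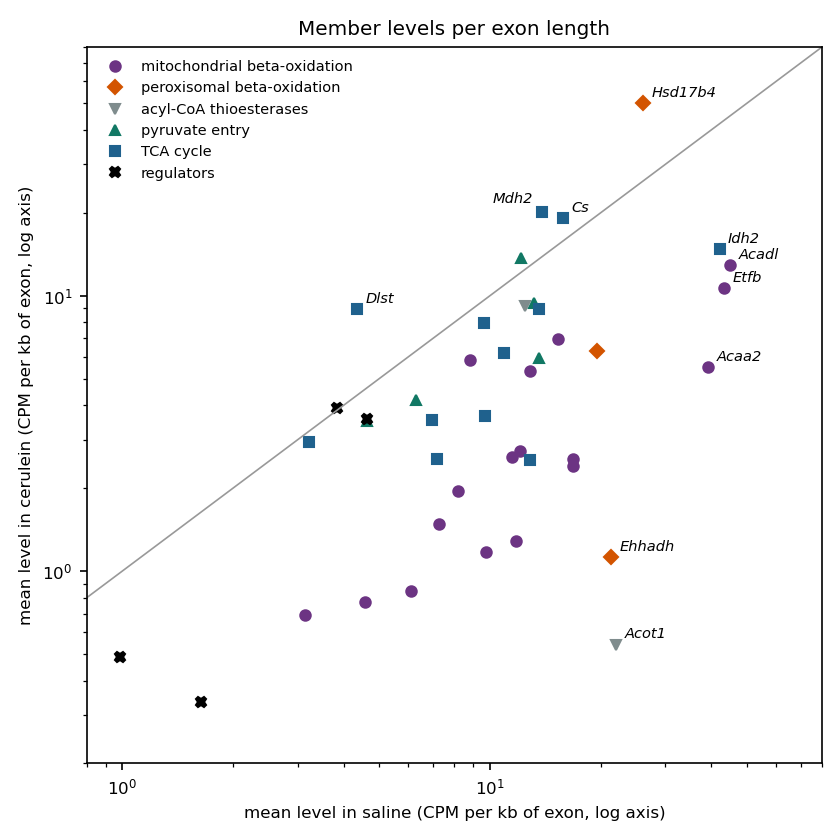
Mean level of each gene in cerulein (vertical) against saline (horizontal), in CPM per kb of exon on log axes, 3 libraries each, with the diagonal marking equal levels. Hsd17b4, Mdh2, Cs, Dlst, Dld and Tfam lie above the diagonal, and every mitochondrial beta-oxidation gene lies below it.

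Other genes of the pathway were read from 9 lists. Of 108 genes tested among 123 listed, 66 fell and 19 rose, against 27.1% and 28.7% of all genes. In fatty acid activation and entry, 7 of 14 fell and 3 rose. Cpt1a, the rate-setting carnitine palmitoyltransferase, had 44.1, 45.5 and 52.1 CPM in cerulein against 133, 137 and 138 CPM in saline. The fatty acid transporter gene Slc27a1 fell 8.53-fold, Acsl1, an acyl-CoA synthetase, 3.35-fold, and Acacb, whose product makes the malonyl-CoA that restrains Cpt1a, 4.46-fold.

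Other mitochondrial oxidation enzymes were lower for 11 of 13 and higher for 1, against 27.1% and 28.7% of all genes tested. Mut, methylmalonyl-CoA mutase of propionate breakdown, had 6.61, 4.32 and 6.42 CPM in cerulein against 73.1, 73.5 and 77.7 CPM in saline, a 12.9-fold fall. Acat1, Acadsb and Pccb, of ketone, isoleucine and propionate breakdown, fell 9.0-fold, 8.51-fold and 4.21-fold. Ketone body and lipid droplet genes fell for 6 of 7, against 27.1% of all genes tested. Plin5, which coats lipid droplets, and Oxct1, of ketone body use, fell, with log2 changes of -2.23 and -1.70, and that of Plin5 was -1.28 without saline replicate 1 and not called with library size alone.

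Other peroxisomal enzymes fell for 9 of 14 and rose for 2, and peroxins, which build the organelle, fell for 10 of 14. Among all genes tested 27.1% fell and 28.7% rose. With library size alone fewer peroxins fell and some rose. Abcd3, a fatty acid carrier of the peroxisomal membrane, fell 3.77-fold, Scp2 3.27-fold and catalase, Cat, 3.1-fold. Pex11a, which acts in peroxisome division, fell 3.83-fold, Pex7, an import receptor, 4.81-fold, and Pex2 2.43-fold.

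Of 8 other TCA enzymes, 7 fell and 1 rose, against 27.1% and 28.7% of all genes tested. The succinate dehydrogenase subunit genes Sdha and Sdhb fell, with log2 changes of -0.84 ± 0.16 and -1.54 ± 0.19. Nnt, the transhydrogenase that makes mitochondrial NADPH, fell 4.5-fold. Dhtkd1 of lysine breakdown had 1, 0 and 5 counts in the cerulein libraries against 62, 21 and 22 counts in the saline libraries (log2 change -4.62, and -6.34 without cerulein replicate 3). The gene that rose, Ogdhl, is named after its value was seen, at 1.17 ± 0.46 (adjusted p = 0.0455, edgeR), from 21 to 36 counts per cerulein library and 2 to 16 per saline library. Its call was lost in 8 of 15 alternatives, among them DESeq2, limma-voom, and leaving out cerulein replicate 1, cerulein replicate 3, saline replicate 2 or saline replicate 3.

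Genes that control pyruvate entry fell for 5 of 8 and rose for 1, against 27.1% and 28.7% of all genes tested. Pdk1, a kinase that switches pyruvate dehydrogenase off, had 10.4, 6.88 and 7.05 CPM in cerulein against 75.0, 95.9 and 84.9 CPM in saline, and Pdp1, a phosphatase that switches it on, had 12.2, 12.4 and 12.7 CPM in cerulein against 3.38, 2.92 and 2.56 CPM in saline. The log2 changes were -3.39 ± 0.20 and 2.04 ± 0.25 (adjusted p = 3.18e-08 and 1.63e-05, edgeR). The other phosphatase gene, Pdp2, fell by 1.76, and the complex subunit Pdhx by 1.54. The fasting-induced kinase Pdk4 had 26.8, 44.6 and 56.9 CPM in cerulein against 196, 134 and 59.2 CPM in saline, and its call (adjusted p = 0.0267, edgeR) was lost without saline replicate 1, saline replicate 2, cerulein replicate 1 or cerulein replicate 2, and with the replicate number as a block (adjusted p = 0.215).

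**Figure D5:**
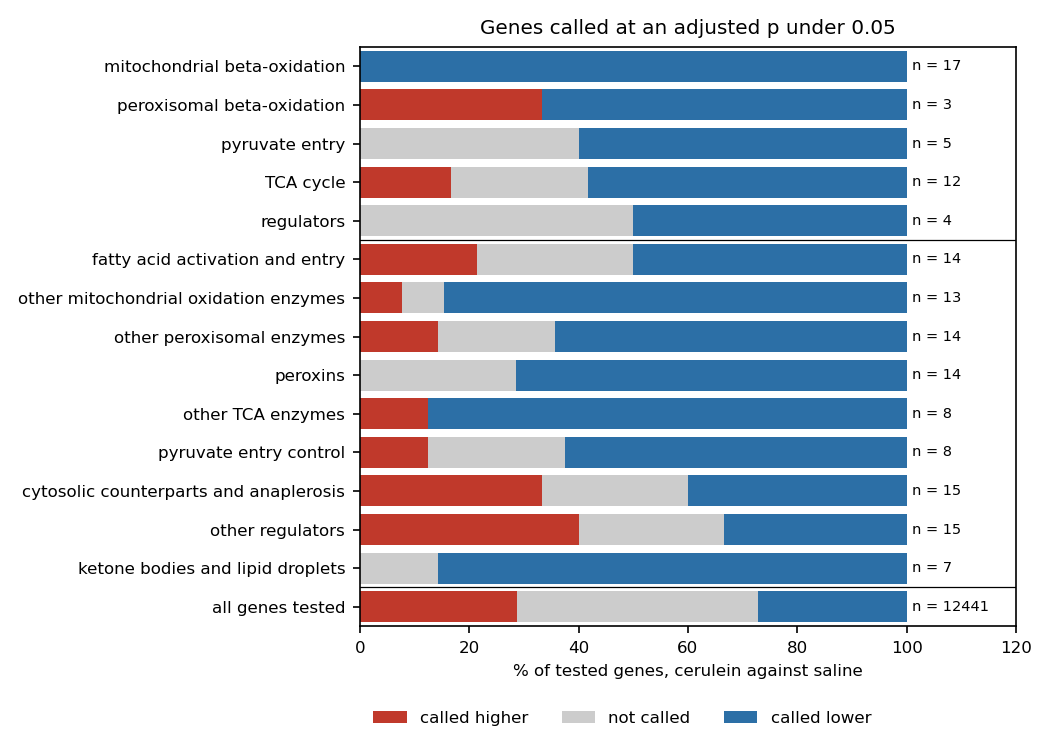
Share of tested genes called higher, not called and called lower after cerulein (edgeR, adjusted p under 0.05), for 5 groups of the 43 genes, the 9 lists of other pathway genes and all 12441 genes tested. The mitochondrial beta-oxidation bar is lower throughout. Among the 9 lists, other regulators and cytosolic counterparts hold the largest shares of higher calls, 40.0% and 33.3%, against 28.7% of all genes.

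Cytosolic counterparts and anaplerotic genes went both ways, with 6 of 15 lower and 5 higher. These were 40.0% and 33.3%, against 27.1% and 28.7% of all genes tested. Me1, the cytosolic malic enzyme that makes NADPH, had 43.6, 65.6 and 48.2 CPM in cerulein against 3.11, 2.02 and 1.28 CPM in saline, a 22.7-fold rise (log2 change 4.505 ± 0.28, adjusted p = 5.04e-08, edgeR). Got1, the cytosolic aspartate aminotransferase, rose 5.23-fold. Mdh1, the cytosolic malate dehydrogenase, had 24.1, 21.2 and 20.5 CPM in cerulein against 67.5, 83.8 and 96.7 CPM in saline, opposite to the rise of mitochondrial Mdh2.

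Other regulators rose for 6 of 15 and fell for 5, with a median log2 fold change of 0.34. These shares were 40.0% and 33.3%, against 28.7% and 27.1% of all genes tested. Ppara, the nuclear receptor that drives many genes of fatty acid oxidation in liver, had 0.47, 0.93 and 0.76 CPM in cerulein against 11.5, 12.4 and 14.6 CPM in saline, from 4, 8 and 6 counts in cerulein (log2 change -4.11 ± 0.33, adjusted p = 4.58e-07, edgeR). Nrf1, a factor of respiratory genes, rose by 1.64 ± 0.18, and Pprc1, a coactivator of the PGC family, by 2.11 ± 0.25 on the log2 scale. Sirt3, a mitochondrial deacetylase, fell by 1.94 ± 0.22. Thus within the PGC family Pprc1 had 193, 169 and 231 CPM in cerulein against 62.5, 28.5 and 45.4 CPM in saline, while Ppargc1b was lower.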

How the data were processed

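The deposited table holds raw counts of reads for each gene, 1 column per library, used unchanged. The library kit was TruSeq Stranded mRNA, per the labels' protocols. Trimmomatic, STAR, HTSeq and mm10 are named in the submitters' processing notes. The sources used here do not give settings, annotation or strand of counting, so reads of overlapping or antisense genes may not be separable.

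The test was that of edgeR 4.0.16 under R 4.3.3 (filterByExpr set to at least 10 counts per library and 15 in total, TMM factors, robust quasi-likelihood F test, two-sided, Benjamini-Hochberg over 12441 genes), all 6 libraries in 1 fit without covariates. Standard errors come from the F statistics. Ratios of counts, with 0.5 added to each count for the log2 values, were compared with exact permutation tests in SciPy 1.17.1. Tested on simulated counts, the fit recovered smaller changes less often than larger ones, and the share of false calls was above the nominal threshold. The simulation, drawn once, changed far fewer genes than were called here, in equal numbers up and down. Its share of false calls therefore need not hold for these data. Calls near the threshold are still the less certain ones. Alternatives used other scalings, filters, DESeq2 1.42.0, limma-voom (limma 3.58.1), each library left out, and the replicate number as a block.

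Exon lengths, overlaps and shared stretches of 50 bases came from GENCODE M21 (GRCm38), and positions and promoters from RefSeq GRCm38.p6. Up to 4 genes with the smallest p were named per role or list, plus Cpt1a, Sdha, Pdk4, Ppara, Idh1 and every member not called. The members and lists were chosen with earlier results of these data known. Protein sequences were not used here, and some genes named by this rule are not reported here.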

Additional observations from a re-analysis of the deposited data

How the results depend on the processing

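Of 35 members called, 24 kept their call and direction under all 15 alternatives. Most changes came with library size alone, where genes called lower numbered 1453, members called higher 6, pyruvate entry 1 higher and 0 lower, TCA cycle 4 lower, and regulators 1 higher and 1 lower. There the median of the pyruvate genes was 0.07, and Acot2, Pdha1, Dlat, Idh3a, Idh3b and Esrra turned to 0.062, 0.07, 0.14, 0.39, 0.30 and 0.22. Peroxins were then 2 higher and 5 lower, other TCA enzymes 3 lower, pyruvate entry control 2 and 3, cytosolic counterparts 8 and 3, other regulators 3 lower, and ketone and lipid droplet genes 1 and 2. With upper-quartile factors 1 TCA gene was higher, and Dld and Tfam were at -0.026 and -0.17. Tfam was at -0.13 with library size without digestive enzyme genes.

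Leaving out 1 library gave 29 to 32 members lower and 3 higher in each case, 16 or 17 mitochondrial beta-oxidation genes lower, and 2 to 4 pyruvate genes. Regulators called lower lay between 1 and 2, with 1 without saline replicate 3 or any cerulein replicate. Signs also changed for Idh3a, at 0.002 without cerulein replicate 1 and 0.011 without saline replicate 1 in a range from -0.282, and for Tfam, at -0.018 without cerulein replicate 2 and -0.003 without saline replicate 1 in a range up to 0.08. The Etfa/Etfb difference was -0.004 with no offset and lay between -0.186 and 0.325 without 1 library. Pdha1/Pdhb lay between -0.083 and 0.264 and Idh3a/Idh3b between -0.066 and 0.262.

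Nothing states that the replicate numbers pair the samples. Deviations from the group means correlated at 0.19, 0.216 and -0.15 for numbers 1, 2 and 3. Pairs of unlike number lay between -0.293 and 0.0884. With 3 libraries in each group, such values cannot decide whether the numbers pair the samples. With the replicate block 32 members were lower and 3 higher, and all genes numbered 3400 lower and 3673 higher. Depth limits Ppargc1b, Ppara and Dhtkd1, whose cerulein libraries hold few reads.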
